A study of Mus musculus with 25 samples.

Results

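Genes of the mitochondrial respiratory chain and ATP synthase were followed in livers of mice injected with mutant PIK3CA. Members were chosen by gene symbol alone: every symbol that begins with Nduf, Uqcr, Atp5, Cox4, Cox5, Cox6, Cox7 or Cox8, and the succinate dehydrogenase genes Sdha, Sdhb, Sdhc and Sdhd. The muscle forms Cox6a2, Cox7a1 and Cox8b were left out. The rule found 85 genes of the 20005 with a symbol, measured by 128 of 45281 probes. A detected probe, one with a detection p-value under 0.05 on at least 4 of the 25 arrays, was present for 78 of these 85 genes (115 probes) and for 11594 genes in all (20349 probes). Sdha, Ndufs1, Ndufaf6, Cox7b2 and Cox8c were detected on 0 arrays, Cox6b2 on 1 and Cox4i2 on 3. Of the genes the rule found, the flavoprotein of complex II and a core subunit of complex I were thus not measured. Subunits with other names fall outside the rule and are not among the members. The name rule reaches beyond subunits: it takes in the Ndufaf genes, which help to assemble complex I, Cox7a2l, a factor that joins complexes into supercomplexes, and Atp5s, known as coupling factor B. Ndufa4 was counted with complex IV, where the protein is now placed.

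Complexes I to IV of the inner mitochondrial membrane pass electrons from NADH and succinate to oxygen, and complexes I, III and IV pump protons as they do so. Complex V, the ATP synthase, lets the protons flow back and makes ATP. Hepatocytes are rich in mitochondria, and fatty acid oxidation, gluconeogenesis and urea synthesis in the liver depend on them.

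RNA came from mice of the strain C57BL/6J x 129Sv in 7 groups, and was measured on Illumina bead arrays. The groups were liver tumours 5 months after PIK3CA E545K (n = 5), preneoplastic livers 3 months after E545K (n = 5), preneoplastic livers 3 months after PIK3CA H1047R (n = 4), 1 preneoplastic liver 6 months after H1047R, 1 tumour 12 months after H1047R, and normal livers of empty-vector mice of 6 months (n = 5) and 3 months (n = 4). Both are activating mutations found in cancers, in the gene for p110 alpha, the catalytic subunit of a phosphoinositide kinase. Ages are those of the labels, which do not give the promoter or the route of the injected vector, nor whether each array came from a separate animal. The p-values therefore measure the spread between these samples, which may be technical. The study's own description counts 5 controls at 3 months and mentions controls at 5 months, the age of the tumours. The labels used here give 4 at 3 months and place none at 5 months, so controls of that age were not analysed here. Age and tissue cannot be told apart in a comparison of the tumours with controls of 1 age, so both control groups were used. A bulk liver sample holds many cell types, and fewer cells of a type cannot be told apart from less RNA per cell.

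Between 14536 and 18391 probes were detected per array, and 16734 to 18010 on the tumours. The mean log2 level of 9 detected hepatocyte marker genes was 12.57 to 12.85 in the tumours, 12.40 to 12.73 in 6-month controls and 12.51 to 12.62 in 3-month controls. Macrophage markers (11 detected of 12) averaged 7.64 to 9.48 in the tumours, 6.15 to 7.74 in 6-month controls and 6.54 to 7.58 in 3-month controls. Against each control group 6 of these 11 were called higher and 0 lower. Fat markers (4 detected of 8) averaged 4.58 to 4.78 in the tumours, against 5.15 to 6.86 in 6-month controls and 5.09 to 6.41 in 3-month controls, with 1 called lower against 6-month and 2 against 3-month controls. Bile duct and progenitor markers (5 detected of 8) averaged 6.62 to 7.65 in the tumours, 5.86 to 6.75 in 6-month controls and 6.43 to 6.75 in 3-month controls. Of these 5, 2 were called higher and 0 lower against 6-month controls, and 2 higher and 1 lower against 3-month controls. Stellate cell and matrix markers (10 detected) had 3 called higher and 0 lower against 6-month controls, and 1 higher and 3 lower against 3-month controls. Skeletal muscle markers (14 detected of 15) averaged 4.48 to 4.58 in the tumours, 4.54 to 7.02 in 6-month controls and 5.08 to 10.61 in 3-month controls, and were also high, at 9.81, on 1 H1047R array of 3 months. Against 3-month controls 12 of these 14 were called lower in the tumours, and 0 against 6-month controls. The part of these other cell types in the results below was not tested, apart from the arrays left out as given there.

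Values are log2 normalized signals, on which a difference of 1 is a 2-fold change. A probe was called at an adjusted p under 0.05 (limma, Benjamini-Hochberg over all 20349 detected probes), and a gene with several probes is represented by its brightest one unless said otherwise. In the E545K tumours most called members were lower. Against 6-month controls 31 of the 115 member probes were called, 30 lower and 1 higher. Background calls over all detected probes were 16% in either direction, 7.57% lower and 8.42% higher. Among members the share called lower was 26.1% and the share called higher 0.87%. Against 3-month controls 64 member probes were called, 47 lower (40.9%) and 17 higher (14.8%). Here the background was 39.8% in either direction, 20.6% lower and 19.2% higher. Against the preneoplastic E545K livers of 3 months 46 member probes were called, 40 lower (34.8%) and 6 higher (5.22%), over a background of 38.9%, 20.6% lower and 18.3% higher. With all arrays in the fits, the share of members called lower was above the background in these 3 comparisons and the share called higher below it.

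**Figure D1:**
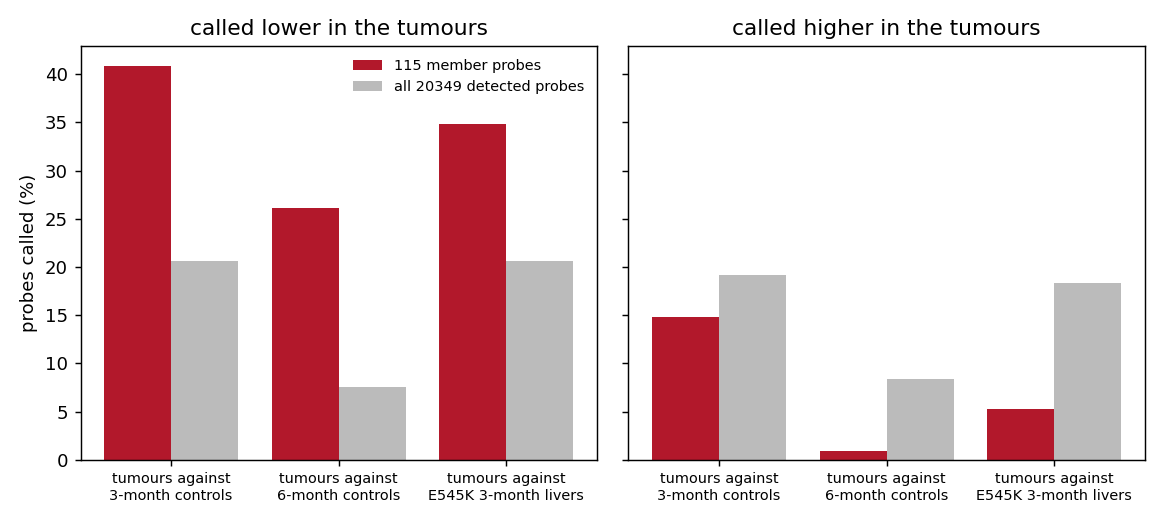
Share of probes called lower (left) and higher (right) in the E545K tumours, in percent, against 3-month controls, 6-month controls and E545K livers of 3 months. Red bars are the 115 member probes and grey bars all 20349 detected probes; the red bars are above the grey ones for lower calls (26.1% against 7.57% for 6-month controls) and below them for higher calls.

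The median log2 difference over the 78 member genes was -0.35 against 6-month controls, -0.35 against 3-month controls and -0.26 against E545K livers of 3 months. Over all 11594 genes the medians were -0.0154, -0.0264 and -0.025. Tumour and other arrays did not overlap on 24 member probes against 6-month controls, 50 against 3-month controls and 34 against E545K livers of 3 months, and the background of such probes was 12.6%, 29.2% and 20.6%. Members called lower against both control groups numbered 27 probes (23.5% of member probes, against a background of 6.57%), from 25 genes when a gene is counted by any of its probes. Counted over all 115 member probes, every tumour was below every one of the 9 controls on 22 probes, from 20 genes. The probes of Ndufb2 and Atp5e are among the 27 but not among the 22. The share of such probes over all detected probes was not counted. The 3 comparisons share the tumour arrays and are not independent of each other.

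The number of calls depended on single arrays. Calls over all detected probes in these fits are not given, so the counts do not show whether the members' share changed against the background. Against 6-month controls the 31 calls became 17, 13, 17 and 14 without tumour replicates 2, 3, 4 and 5, and 16 and 17 without 6-month control replicates 2 and 4. Against 3-month controls the 64 calls became 4, all lower, without the 3 control arrays high in muscle markers, which leaves 1 control assumed to vary like the tumours, and 42 (39 lower and 3 higher) without 3-month control replicates 1 and 2, both chosen after seeing the data. The higher calls moved most. Against 3-month controls the 17 became 10 without tumour replicate 2, 3 or 4, 11, 9 and 8 without control replicates 1, 2 and 4, and 23 without tumour replicate 1. Against E545K livers of 3 months the 6 became 21 without liver replicate 4 and 18 without tumour replicate 1. Whether the share of higher calls stayed below the background of those fits was not tested.

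**Figure D2:**
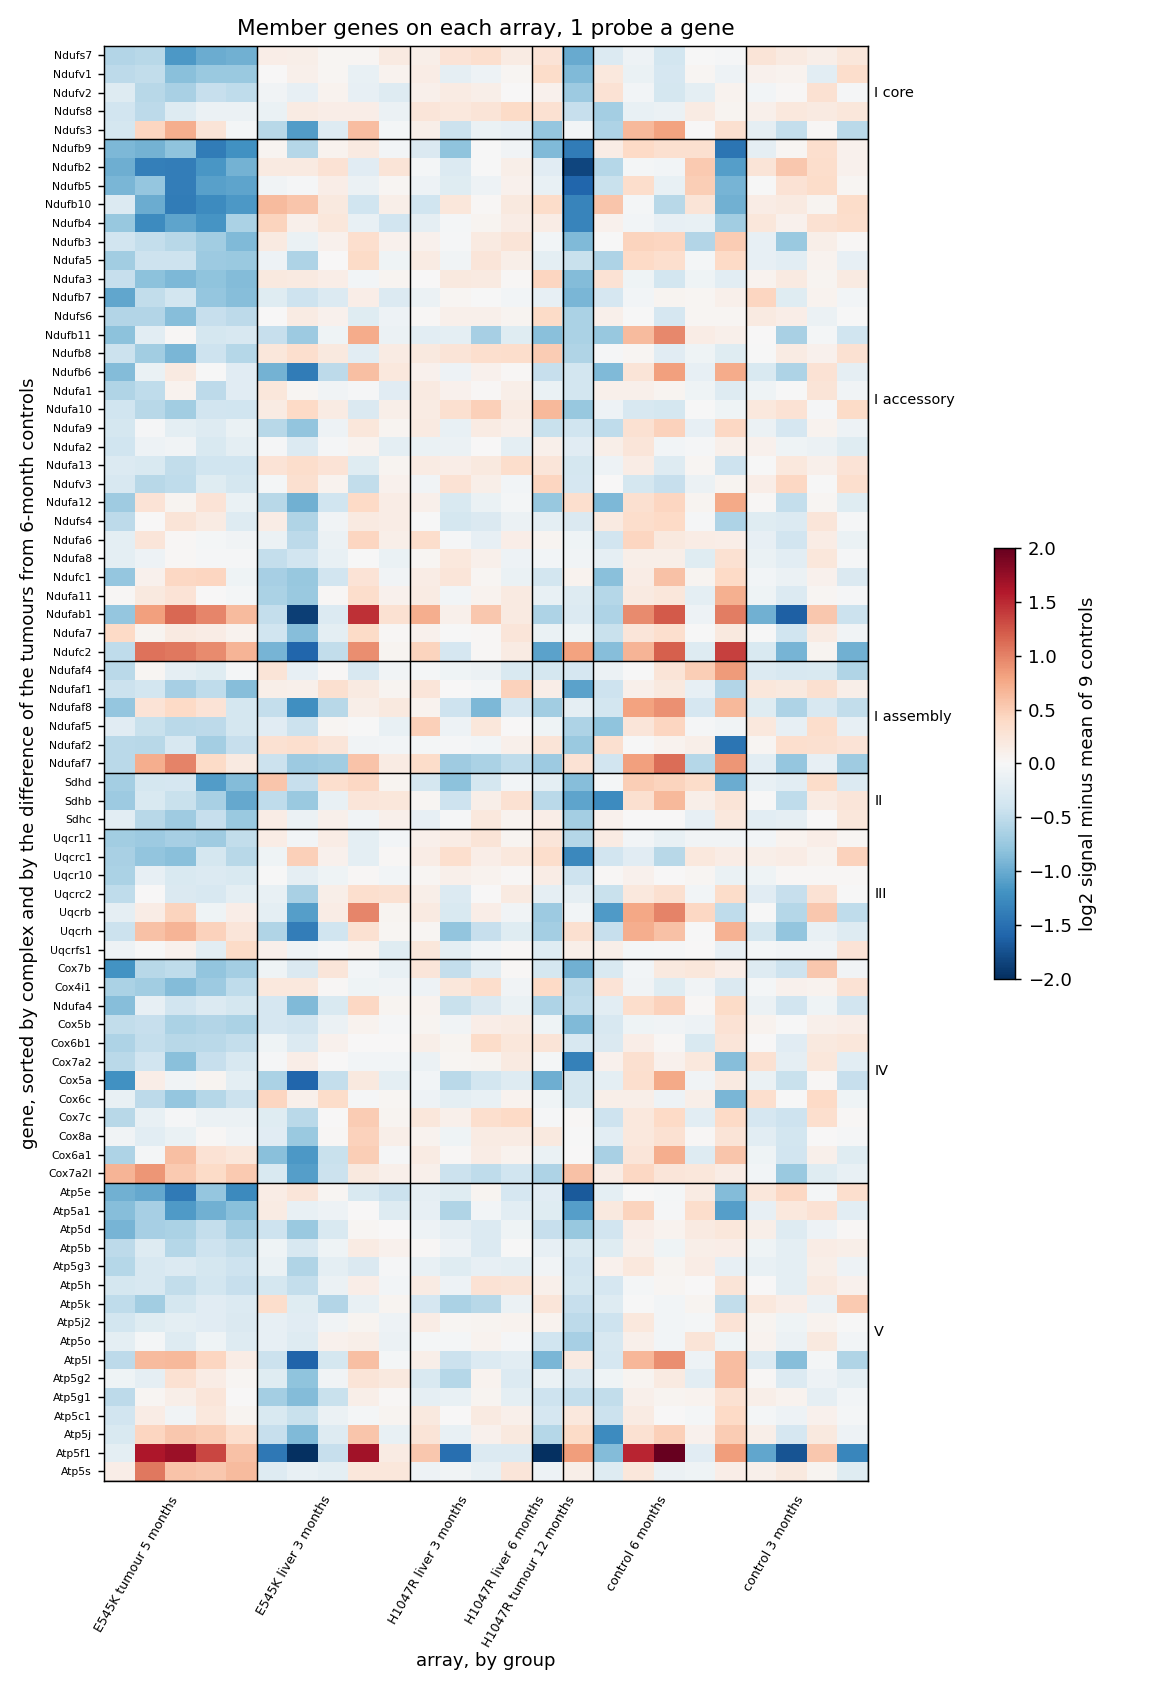
Log2 normalized signal of 77 of the 78 detected member genes (rows, sorted by complex and by the difference of the tumours from 6-month controls) on 25 arrays (columns, by group), each minus the gene's mean over the 9 controls. Blue runs through the 5 E545K tumours and the H1047R tumour of 12 months for genes such as Ndufs7, Ndufb2, Uqcr11, Cox4i1 and Atp5e, while a smaller set such as Atp5f1 and Ndufab1 varies between arrays of the same group.

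Complex I takes electrons from NADH. Its core subunits carry the flavin and iron-sulfur centres. Of their 7 probes 2 (28.6%) were called lower and 0 higher in the tumours against 6-month controls. Against 3-month controls 4 (57.1%) were called lower and 2 (28.6%) higher. For this and the other complexes the background was 7.57% lower and 8.42% higher against 6-month controls. It was 20.6% and 19.2% against 3-month controls. Ndufs7, the subunit that holds the last iron-sulfur cluster before ubiquinone, had log2 signals of 11.33, 11.37, 10.78, 10.92 and 10.96 in the tumours, against 11.64, 11.82, 11.56, 11.91 and 11.90 in 6-month controls and 12.19, 12.10, 12.04 and 12.14 in 3-month controls. Every tumour was below every control of both ages. The log2 difference was -0.69 (SE 0.16, adjusted p = 0.0124) from 6-month controls, -1.05 (SE 0.15, adjusted p = 0.000509) from 3-month controls and -0.95 (SE 0.14, adjusted p = 0.000504) from E545K livers of 3 months. Ndufv1, which holds the flavin site where NADH is oxidized, averaged 11.72 ± 0.15 in the tumours (SD, n = 5), 12.33 ± 0.21 in 6-month controls (n = 5) and 12.47 ± 0.23 in 3-month controls (n = 4). Its groups did not overlap either, with log2 differences of -0.61 (adjusted p = 0.0158) and -0.75 (adjusted p = 0.00273). Ndufv2 and Ndufs8 were called lower against 3-month controls, by -0.55 (adjusted p = 0.00864) and -0.46 (adjusted p = 0.0169), and not against 6-month controls.

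The accessory subunits, which surround the core and hold no redox centre, have the most probes, 44 of 115, and with that the most calls. Of these 44 probes 13 (29.5%) were called lower and 0 higher against 6-month controls. There were 19 (43.2%) lower and 3 (6.82%) higher against 3-month controls, and 19 (43.2%) lower and 0 higher against E545K livers of 3 months. Ndufb2, an accessory subunit of the membrane arm, had log2 signals of 7.29, 6.90, 6.89, 7.10 and 7.32 in the tumours. Its signals were 7.70, 8.23, 8.21, 8.80 and 7.17 in 6-month controls and 8.52, 8.80, 8.62 and 8.35 in 3-month controls. All tumours were below all 3-month controls, and 6-month control replicate 5 lay among the tumours. The log2 difference was -0.92 (SE 0.26, adjusted p = 0.0356) from 6-month controls, -1.47 (SE 0.15, adjusted p = 7.001e-05) from 3-month controls and -1.30 (SE 0.14, adjusted p = 8.42e-05) from E545K livers of 3 months.

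Other Ndufb genes, of the same arm of the complex, were mixed. Against 3-month controls Ndufb7 and Ndufb8 were called lower (-0.76, adjusted p = 0.0077, and -0.74, adjusted p = 0.00242), while Ndufb3 (-0.40, adjusted p = 0.115), Ndufb6 (-0.01, adjusted p = 0.973) and Ndufb11 (-0.07, adjusted p = 0.815) did not pass. The larger differences from these controls were as follows. Ndufb5 differed by -1.21 (adjusted p = 0.000264), Ndufb4 by -1.22 (adjusted p = 0.000272), Ndufb9 by -1.12 (adjusted p = 0.000519) and Ndufb10 by -1.20 (adjusted p = 0.00146). Against 6-month controls Ndufb5 (-0.91, adjusted p = 0.0343) and Ndufb4 (-0.78, adjusted p = 0.015) passed, while Ndufb9 (-0.996, adjusted p = 0.0603) and Ndufb10 (-0.86, adjusted p = 0.0744) did not. A second, dimmer probe of Ndufb10 gave larger differences. On it the tumours had log2 signals of 7.95, 7.38, 6.86, 6.96 and 7.31, against 9.43, 9.001, 8.50, 9.31 and 8.01 in 6-month controls and 9.40, 9.21, 8.92 and 9.09 in 3-month controls. The highest tumour was just below the lowest control. The log2 difference of -1.56 (SE 0.29, adjusted p = 0.00476) from 6-month controls was the lowest of all member probes there, and that from 3-month controls was -1.86 (SE 0.22, adjusted p = 0.000142).

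Ndufa3, a small accessory subunit, was lower on both of its probes in every comparison of the tumours. The brighter probe averaged 11.61 ± 0.18 in the tumours (SD, n = 5), against 12.29 ± 0.24 in 6-month controls (n = 5) and 12.50 ± 0.07 in 3-month controls (n = 4), with log2 differences of -0.68 (adjusted p = 0.0134) and -0.89 (adjusted p = 0.000567). The other probe gave -1.02 (adjusted p = 0.00982) and -1.03 (adjusted p = 0.000387). Ndufs6, which is needed for the last steps of complex I assembly, differed by -0.56 (adjusted p = 0.0177) and -0.64 (adjusted p = 0.00331). The assembly factors of complex I (7 probes) had 0 calls against 6-month controls, and 3 lower (42.9%) and 1 higher (14.3%) against 3-month controls. Ndufaf1 and Ndufaf2, both assembly factors, differed from 3-month controls by -0.78 (adjusted p = 0.0015) and -0.75 (adjusted p = 0.00127).

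Complex II is the succinate dehydrogenase, which also belongs to the tricarboxylic acid cycle. Of its 6 probes 1 (16.7%) was called lower against 6-month controls and 4 (66.7%) against 3-month controls, with 0 higher. Sdhc, one of the membrane anchors, had log2 signals of 11.41, 11.05, 10.89, 11.14 and 10.87 in the tumours, against 11.70, 11.62, 11.61, 11.45 and 11.82 in 6-month controls and 11.40, 11.42, 11.62 and 11.83 in 3-month controls. The tumours were all below the 6-month controls and overlapped the 3-month controls by 1 array. The log2 difference was -0.57 (SE 0.14, adjusted p = 0.0211) from 6-month and -0.50 (SE 0.16, adjusted p = 0.0262) from 3-month controls. A dimmer probe of Sdhc was called against neither age (-0.36 from 6-month controls, and -0.41, adjusted p = 0.2575, from 3-month controls). The iron-sulfur subunit Sdhb and the anchor Sdhd passed against 3-month controls (-0.61, adjusted p = 0.0296, and -0.60, adjusted p = 0.0352). Sdhc, Sdhb and Sdhd each lost that call in 5 of the 9 fits that left out 1 array. Sdhc lost its call against 6-month controls in 2 such fits. The differences of Sdhb and Sdhd from 6-month controls were of similar size (-0.65, adjusted p = 0.187, and -0.72, adjusted p = 0.11) and did not pass.

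Complex III passes electrons from ubiquinol to cytochrome c. Of its 8 probes 1 (12.5%) was called lower and 0 higher against 6-month controls. There were 2 (25%) lower and 1 (12.5%) higher against 3-month controls, where the share lower is near the background of 20.6%. Uqcr11, its smallest subunit, had log2 signals of 12.76, 12.73, 12.79, 12.75 and 12.97 in the tumours, against 13.62, 13.40, 13.31, 13.39 and 13.38 in 6-month controls and 13.40, 13.53, 13.59 and 13.49 in 3-month controls. The groups were clearly apart, with little spread within each. Its log2 difference was -0.62 (SE 0.12, adjusted p = 0.00608) from 6-month and -0.70 (SE 0.12, adjusted p = 0.00113) from 3-month controls. The core protein Uqcrc1 differed by -0.84 (adjusted p = 0.00142) from 3-month controls and by -0.47 (adjusted p = 0.0972) from 6-month controls. The hinge protein Uqcrh was the 1 call in the other direction, at 0.70 (adjusted p = 0.0346) from 3-month controls and 0.00 from 6-month controls.

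Complex IV, the cytochrome c oxidase, hands the electrons to oxygen. Of its 17 probes 5 (29.4%) were called lower and 0 higher against 6-month controls, and 6 lower (35.3%) and 3 higher (17.6%) against 3-month controls. Cox4i1, the common form of subunit 4, had log2 signals of 12.94, 12.89, 12.71, 12.86 and 13.07 in the tumours, against 13.84, 13.51, 13.33, 13.51 and 13.28 in 6-month controls and 13.53, 13.66, 13.64 and 13.87 in 3-month controls. No tumour reached the lowest control. The log2 difference was -0.60 (SE 0.14, adjusted p = 0.0164) from 6-month and -0.78 (SE 0.13, adjusted p = 0.00104) from 3-month controls. Cox7b, Cox5b and Cox6b1, further nuclear-encoded subunits, passed against both ages as well. Their log2 differences from 6-month controls were -0.79 (adjusted p = 0.00983), -0.50 (adjusted p = 0.0315) and -0.49 (adjusted p = 0.0401). The calls of Cox5b and Cox6b1 against 6-month controls were lost in 6 and 8 of the 10 fits that each left out 1 array.

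All 3 higher calls of complex IV against 3-month controls were probes of Cox7a2l. On the brightest one the tumours had log2 signals of 11.74, 11.94, 11.58, 11.44 and 11.57, against 11.20, 11.46, 11.29, 11.29 and 11.21 in 6-month controls and 10.9997, 10.31, 10.81 and 10.91 in 3-month controls. The tumours were above all 3-month controls, while the lowest tumour lay just below the highest 6-month control. Its log2 difference was 0.90 (SE 0.17, adjusted p = 0.0022) from 3-month controls and 0.37 (SE 0.14, adjusted p = 0.0905) from 6-month controls, which did not pass. The other probes differed from 3-month controls by 2.09 (adjusted p = 0.000136) and 2.04 (adjusted p = 0.00257).

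The muscle forms stood outside the rule, and their levels followed the muscle markers. Cox8b, the muscle form of subunit 8, had 10.54 in 3-month control replicate 4 and 9.54 in H1047R replicate 2 of 3 months, the arrays with the highest muscle markers, and 4.36 to 4.69 in the tumours, near the lowest detected signals of 4.59 to 4.93. Cox6a2, the muscle form of subunit 6A, had 12.03 and 11.03 on the same 2 arrays. The tissue forms among the members, Cox4i2, Cox6b2, Cox7b2 and Cox8c, were not detected, as given above.

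**Figure D3:**
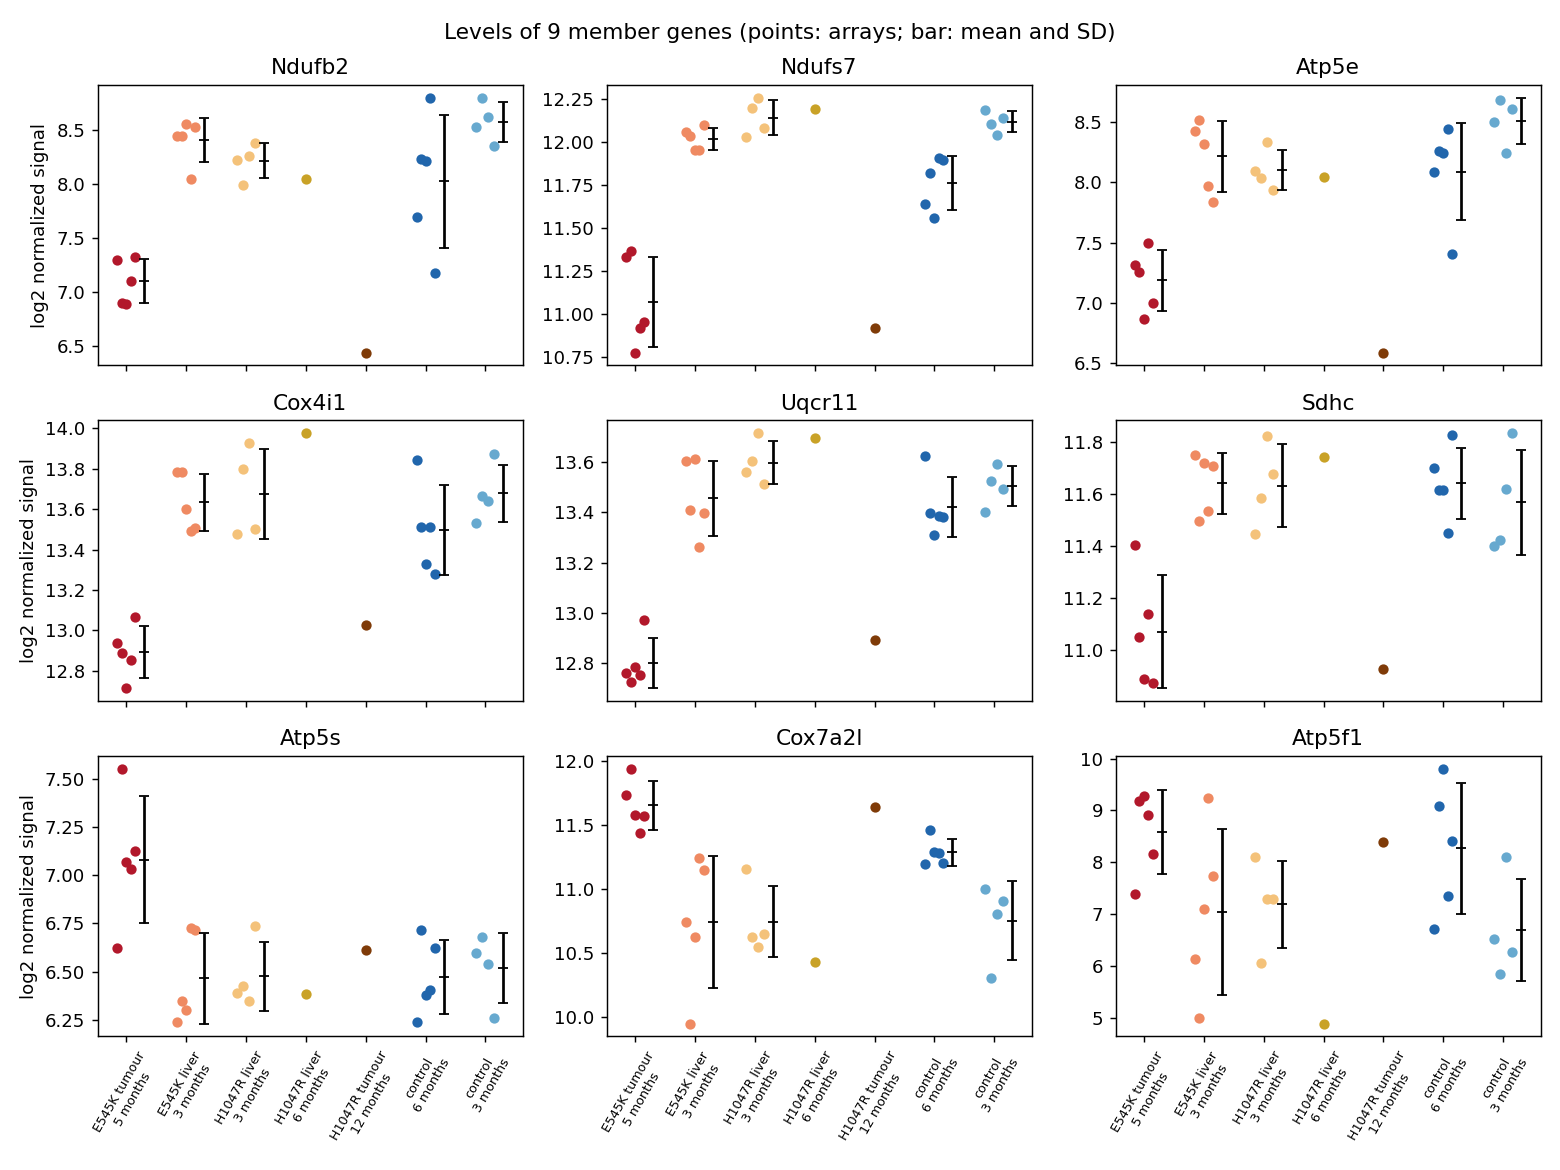
Log2 normalized signal (y axis, a scale for each gene) of 9 member genes in the 7 groups. Points are arrays and the bar beside each group of several arrays is its mean and SD; the E545K tumours and the H1047R tumour of 12 months are low for Ndufb2, Ndufs7, Atp5e, Cox4i1, Uqcr11 and Sdhc, the E545K tumours are high for Atp5s and Cox7a2l, and Atp5f1 spreads widely within groups.

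Complex V is the ATP synthase. Of its 26 probes 8 (30.8%) were called lower and 1 (3.85%) higher against 6-month controls. There were 9 (34.6%) lower and 7 (26.9%) higher against 3-month controls. The share higher was there above the background of 19.2%, unlike that of all members. Atp5e, the epsilon subunit of the central stalk, had log2 signals of 7.32, 7.26, 6.86, 7.50 and 6.997 in the tumours, against 8.09, 8.26, 8.24, 8.45 and 7.41 in 6-month controls and 8.50, 8.68, 8.24 and 8.61 in 3-month controls. Only 6-month control replicate 5 lay within the tumours' range. The log2 difference was -0.90 (SE 0.21, adjusted p = 0.0136) from 6-month and -1.32 (SE 0.16, adjusted p = 0.000206) from 3-month controls. The catalytic head subunits Atp5a1 (alpha) and Atp5b (beta) differed from 6-month controls by -0.86 (adjusted p = 0.048) and -0.46 (adjusted p = 0.0368), and from 3-month controls by -0.92 (adjusted p = 0.00124) and -0.45 (adjusted p = 0.019). Atp5d, the delta subunit of the stalk, differed by -0.72 (SE 0.15, adjusted p = 0.00978) and -0.62 (adjusted p = 0.00525), with no overlap in either comparison. Atp5g3, a gene of the rotor ring, passed only against 6-month controls (-0.45, adjusted p = 0.0336). The calls of Atp5b and Atp5g3 against 6-month controls were each lost in 7 of the 10 fits that left out 1 array.

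Probes of the same gene did not always give the same call. Atp5k, a small subunit of the membrane part, differed from 6-month controls by -1.06 (SE 0.13, adjusted p = 0.000279) on its dimmer probe and by -0.26 (adjusted p = 0.289) on its brighter one. Of 27 genes with several detected probes 11 had a called and an uncalled probe against 3-month controls, and 2, Atp5l and Ndufs4, had probes called in opposite directions. Atp5l, the g subunit of the membrane part, differed by 0.71 (adjusted p = 0.0467) on its brightest probe, and by 0.92 (adjusted p = 0.0296) and -0.43 (adjusted p = 0.0352) on others. Against 6-month controls 0 genes had opposite calls. The results of these genes are uncertain, since the probes may read different transcripts.

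The 1 member called higher against both control groups was Atp5s. It had log2 signals of 6.62, 7.55, 7.07, 7.03 and 7.13 in the tumours, against 6.24, 6.72, 6.38, 6.40 and 6.62 in 6-month controls and 6.60, 6.68, 6.54 and 6.26 in 3-month controls. Tumour replicate 1 was within the range of the controls and the other 4 were above it. The log2 difference was 0.61 (SE 0.18, adjusted p = 0.0396) from 6-month and 0.56 (SE 0.18, adjusted p = 0.031) from 3-month controls.

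**Figure D4:**
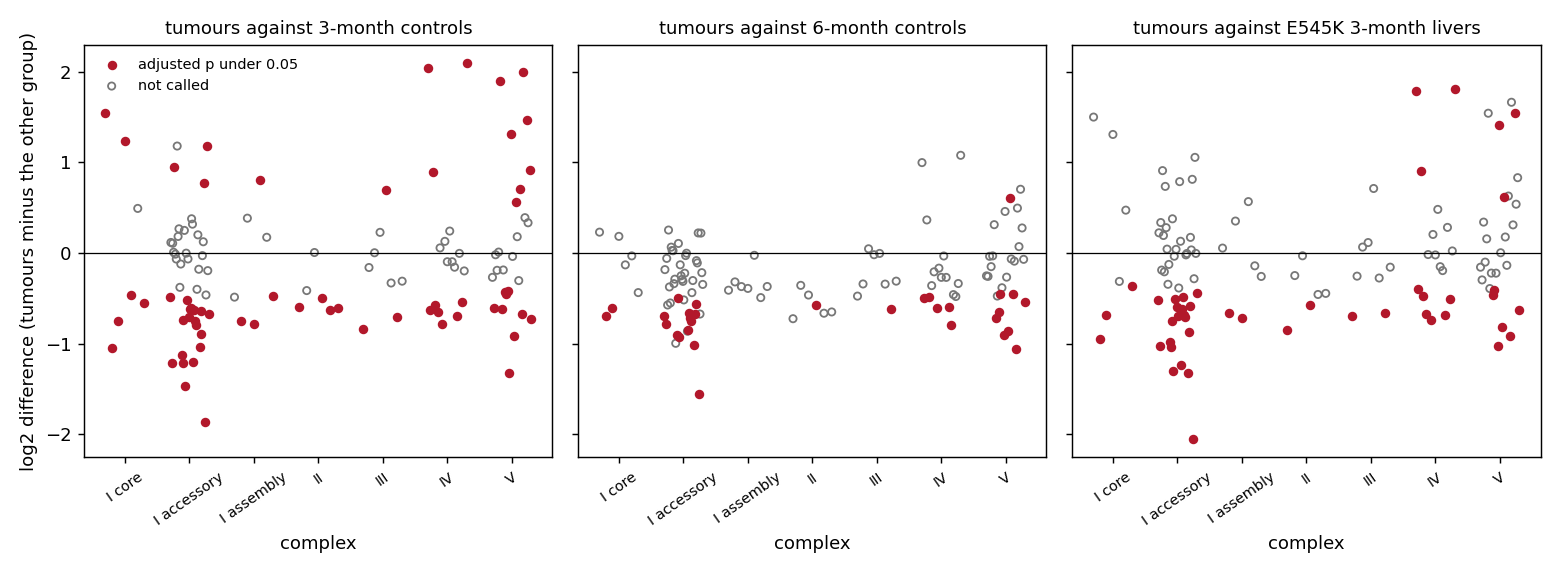
Log2 difference of the E545K tumours from 3-month controls, 6-month controls and E545K livers of 3 months (panels) for each of the 115 member probes, by complex (x axis). Filled red points are probes called at an adjusted p under 0.05 and open points are not called; against 6-month controls 30 of the 31 filled points are below 0, while against 3-month controls 17 of 64 are above it.

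Many of the higher calls against 3-month controls came from probes that varied widely within groups; the brightest Cox7a2l probe and Atp5s, with SDs of 0.314 and 0.237, did not. Atp5f1, now named Atp5pb, encodes subunit b of the peripheral stalk of the ATP synthase. Its log2 signals were 7.38, 9.19, 9.28, 8.91 and 8.16 in the tumours, against 6.70, 9.09, 9.81, 7.34 and 8.41 in 6-month controls and 6.53, 5.84, 8.11 and 6.27 in 3-month controls. The E545K livers of 3 months covered nearly the whole span, at 6.13, 4.99, 7.10, 9.24 and 7.73. The tumours and the 6-month controls overlapped almost fully. Atp5f1 differed by 1.90 (SE 0.49, adjusted p = 0.0103) from 3-month controls, the highest difference of a member gene, and by 0.31 (adjusted p = 0.753) from 6-month controls.

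Deviations of the arrays from their group means showed the same pattern. Over the 23 arrays of groups with replicates, deviations of 38 of the other 114 member probes (33.3%) correlated with those of Atp5f1 above 0.8, against 1246 of all detected probes (6.12%). All points share the arrays and their normalization, Atp5f1 was chosen after its values were seen, and the correlations are given as a description. Of the 17 member probes called higher against 3-month controls 15, Atp5f1 itself among them, were above 0.8, and of the 47 called lower 2 were. The median SD within groups was 0.68 for the 17 and 0.25 for the 47, while it was 0.31 for all member probes and 0.315 for all detected probes. Over those probes of any gene above 0.8 the median log2 difference of the tumours was 0.89 from 3-month controls and 0.34 from 6-month controls, and 6-month controls differed from 3-month controls by 0.55. The cause of this shared variation was not tested.

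**Figure D5:**
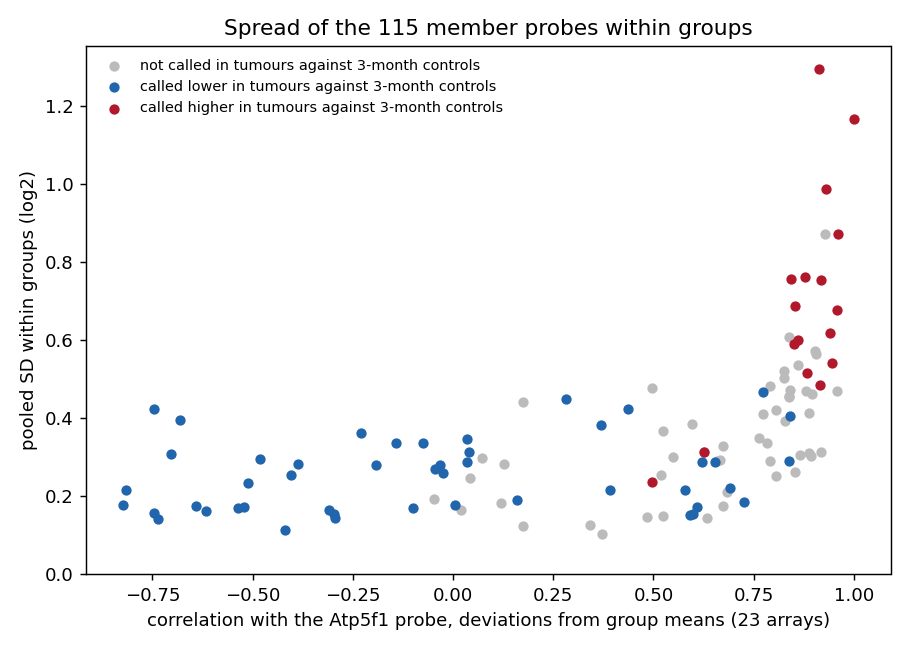
Pooled SD within groups on the log2 scale (y axis) of the 115 member probes against the correlation of their deviations from group means with those of Atp5f1 over 23 arrays (x axis). Probes called higher in the tumours against 3-month controls (red) lie at the right with a median SD of 0.68, and those called lower (blue) are spread over the x axis with a median SD of 0.25; grey probes were not called.

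At 3 months the members showed no called difference in either mutation. Of 115 member probes 0 were called in E545K livers against 3-month controls, over a background of 0.00983%. At an unadjusted p under 0.05 there was 1, against 878 of all 20349 detected probes. In H1047R livers 0 were called (9 unadjusted, against 1409 of all detected probes), with a background of 0%. Between E545K and H1047R livers 0 were called as well (3 unadjusted, against 1135 of all detected probes), again with a background of 0%. The smallest adjusted p of any member probe was 1, 0.583 and 0.766 in these 3 comparisons. The median log2 difference of the member genes was -0.06 for E545K and 0.04 for H1047R from 3-month controls. Ndufb2 averaged 8.40 ± 0.21 in E545K livers (SD, n = 5) and 8.21 ± 0.16 in H1047R livers (n = 4), against 8.57 ± 0.19 in 3-month controls (n = 4). Atp5e, which had one of the smallest p-values in both, differed by -0.29 in E545K livers (adjusted p = 1) and -0.41 in H1047R livers (adjusted p = 0.651). With 4 or 5 arrays a group, small differences would not have been detectable.

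The controls of both ages did not differ by a call either. In 6-month against 3-month controls 0 member probes were called, with a background of 0%, and the median difference of the member genes was 0.04. At an unadjusted p under 0.05 there were 19 of the 115 member probes, against 2116 of all 20349 detected probes. Cox7a2l differed by 0.53 (adjusted p = 0.423) and Ndufaf4, an assembly factor, by 0.67 (adjusted p = 0.423).

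The H1047R arrays of 6 and 12 months took no part in choosing the members that were low in the E545K tumours. Fitted together against 6-month controls, 0 member probes were called, over a background of 0.0246%, and the smallest adjusted p was 0.519. At an unadjusted p under 0.05 there were 9, against 1522 of all 20349 detected probes. With 2 arrays of different age and tissue in this group a fit says little, so their values follow. The tumour of 12 months was below all 6-month controls on 28 of the 30 member probes that were lower in the E545K tumours (93.3%), and on 52 of all 115 member probes (45.2%), against 22.6% of all detected probes. The preneoplastic liver of 6 months was below them on 4 of those 30 (13.3%) and on 31 of 115 (27%), against 19.9% of all detected probes. The 30 probes were chosen against the same 6-month controls. In this H1047R tumour Ndufb2 had 6.44, Ndufs7 10.92, Uqcr11 12.89, Cox4i1 13.03 and Atp5e 6.59. In the H1047R liver of 6 months they had 8.04, 12.19, 13.69, 13.97 and 8.04. The tumour lay in or below the range of the E545K tumours for each of these genes, and the liver of 6 months in or above that of the 6-month controls. Atp5s was an exception, with 6.61 in the H1047R tumour and 6.24 to 6.72 in 6-month controls. There is no replicate of either array.

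Over the 27 probes lower against both control groups, the median log2 difference from the 6-month control mean was -0.80 to -0.62 on single E545K tumours and -0.83 on the H1047R tumour of 12 months. It was -0.05 to 0.17 on every other array. The range of the E545K tumours and the controls is set by how the probes were chosen, and that of the other arrays is not, save through the shared controls.

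Other genes of the organelle were counted from lists, in the E545K tumours against 6-month controls first. Of 110 probes of mitochondrial ribosomal proteins 13 were called lower and 2 higher, of 26 probes of tricarboxylic acid cycle enzymes 4 lower and 0 higher, and of 44 probes of the protein import machinery 6 lower and 0 higher. Assembly factors of complexes II to V had 6 lower and 0 higher of 33. Carriers and porins of the mitochondrial membranes had 4 lower and 0 higher of 21, and chaperones and proteases 2 lower and 0 higher of 13. Against 3-month controls the same lists had 24 lower and 18 higher, 9 and 2, 6 and 8, 10 and 4, 4 and 6, and 6 and 3. The background over all probes is 7.57% lower and 8.42% higher against 6-month controls, and 20.6% and 19.2% against 3-month controls. The shares called lower were 11.8% (ribosome), 15.4% (cycle), 13.6% (import), 18.2% (assembly), 19% (carriers) and 15.4% (chaperones) against 6-month controls. Against 3-month controls they were 21.8%, 34.6%, 13.6%, 30.3%, 19% and 46.2%, so those of ribosome, import and carriers were near or below the background there. Timm9, which chaperones carrier proteins between the membranes, averaged 10.15 ± 0.11 in the tumours (SD, n = 5), against 11.20 ± 0.11 in 6-month controls (n = 5) and 11.04 ± 0.07 in 3-month controls (n = 4), with log2 differences of -1.05 (adjusted p = 0.000239) and -0.89 (adjusted p = 0.00033). Tmem70, needed to assemble the ATP synthase, differed by -0.90 (adjusted p = 0.00202) from 6-month and -0.86 (adjusted p = 0.000886) from 3-month controls. The ribosomal protein Mrpl49 differed by -1.03 (adjusted p = 0.00465) and -1.35 (adjusted p = 0.000326). Dlst, a subunit of the 2-oxoglutarate dehydrogenase, differed by -0.64 (adjusted p = 0.012) and -0.72 (adjusted p = 0.00415). Each of these genes was among those of smallest p in its list against 6-month controls. The median difference over the genes of the import list was 0.06 from 6-month and 0.14 from 3-month controls. It was -0.05 and 0.06 for assembly, -0.17 and -0.17 for the ribosome, and -0.38 and -0.40 for the cycle.

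Electron carriers and subunits with other names had 4 lower and 1 higher of 24 probes against 6-month controls (16.7% and 4.17%), and 5 lower and 3 higher against 3-month controls (20.8% and 12.5%, of which the share lower is near the background). The higher one was Atpif1, the inhibitor protein that stops the ATP synthase from running in reverse. It averaged 12.08 ± 0.15 in the tumours (SD, n = 5), against 10.65 ± 0.18 in 6-month controls (n = 5) and 10.52 ± 0.16 in 3-month controls (n = 4). Its log2 difference was 1.44 (SE 0.14, adjusted p = 5.44e-05) from 6-month and 1.57 (SE 0.13, adjusted p = 2.27e-05) from 3-month controls, and the H1047R tumour of 12 months had 12.27. Cytochrome c itself, Cycs, differed by -0.55 (adjusted p = 0.0423) from 6-month controls and by -0.29 (adjusted p = 0.207) from 3-month controls.

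Among regulators of mitochondrial biogenesis 1 of 14 probes was called lower and 0 higher against 6-month controls, and 4 lower and 3 higher against 3-month controls. The 7.14% called lower against 6-month controls is about the background of 7.57%. The one was Tfb2m, a factor of mitochondrial transcription, at -0.67 (adjusted p = 0.0143). Glycolysis genes and hypoxia targets had 4 higher and 0 lower of 25 probes against 6-month controls, and 7 higher and 3 lower against 3-month controls. The shares called higher were 16% and 28%, over a background of 8.42% and 19.2%. Hexokinase Hk2 averaged 8.52 ± 1.17 in the tumours (SD, n = 5), against 6.35 ± 0.73 in 6-month controls (n = 5) and 7.20 ± 0.58 in 3-month controls (n = 4), with log2 differences of 2.17 (adjusted p = 0.0172) and 1.33 (adjusted p = 0.0654). Gapdh differed by 0.56 (adjusted p = 0.0286) and 0.41 (adjusted p = 0.0557). Pfkp differed by 1.53 (adjusted p = 0.0141) and 1.61 (adjusted p = 0.00566), with control means of 4.43 and 4.35, near the lowest detected signals. In the livers of 3 months of either mutation, 0 probes of any of these lists were called.

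Promoter sequences from RefSeq (GRCm38.p6), the 250 bases before each transcript start, were found for 69 of the 78 detected genes (74 windows), and are shown for the members with the lowest and the highest difference from 3-month controls. Both are written 5′ to 3′ on the strand of the gene.
Ndufb2, chr6:39592315-39592564, strand plus: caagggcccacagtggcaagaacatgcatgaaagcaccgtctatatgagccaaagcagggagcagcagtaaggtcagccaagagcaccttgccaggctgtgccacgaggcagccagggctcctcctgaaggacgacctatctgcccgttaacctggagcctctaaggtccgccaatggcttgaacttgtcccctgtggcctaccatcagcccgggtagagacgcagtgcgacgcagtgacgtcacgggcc
Atp5f1, chr3:105959264-105959513, strand minus: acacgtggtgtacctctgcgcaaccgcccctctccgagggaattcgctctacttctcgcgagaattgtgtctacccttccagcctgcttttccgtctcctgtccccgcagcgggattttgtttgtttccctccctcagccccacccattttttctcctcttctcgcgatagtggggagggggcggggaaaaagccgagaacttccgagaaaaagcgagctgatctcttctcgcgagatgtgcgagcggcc
Neither window holds the letters searched for next.

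Motifs of factors known to act on respiratory chain genes were searched on both strands. The NRF1 core GCATGCGC was in 9 of 74 member windows (12.2%), against 2.26% of all 32851 windows. The ETS core CCGGAAG, of the family of NRF2 (GABP), was in 14 (18.9%), against 6.91% of all windows, and the YY1 letters AAGATGGC were in 1 (1.35%), against 1.56%. Among the 24 windows of genes with any probe called lower against both control groups the counts were 2 (8.33%), 6 (25%) and 0. Among the other 50 member windows they were 7 (14%), 8 (16%) and 1 (2%). The class of genes lower against both includes Atp5l, Atp5k, Atp5h, Ndufab1 and Ndufb10, whose brightest probes were not called lower against both. On its brightest probe Atp5l was called higher against 3-month controls (0.71, adjusted p = 0.0467). The stretches around the matches in windows of genes lower against both groups, with the motif in capitals as it reads on the gene's strand, show where these letters stand. The first 6 lines hold the ETS core and the last 2 the NRF1 core, and the pair of Atp5l overlap each other.
Atp5e, chr2:174464172-174464228, strand minus: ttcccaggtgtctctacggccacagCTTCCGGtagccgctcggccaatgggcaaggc
Atp5h, chr11:115419926-115419982, strand minus: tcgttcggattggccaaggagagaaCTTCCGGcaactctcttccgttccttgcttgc
Atp5l, chr9:44920923-44920979, strand minus: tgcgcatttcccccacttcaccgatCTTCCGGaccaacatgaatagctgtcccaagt
Cox6b1, chr7:30626115-30626167, strand minus: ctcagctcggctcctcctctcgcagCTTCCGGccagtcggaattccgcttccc
Ndufb7, chr8:83566713-83566757, strand plus: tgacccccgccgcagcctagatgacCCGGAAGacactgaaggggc
Uqcr11, chr10:80406856-80406912, strand minus: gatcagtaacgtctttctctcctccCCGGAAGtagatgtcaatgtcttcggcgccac
Atp5k, chr5:108434415-108434472, strand minus: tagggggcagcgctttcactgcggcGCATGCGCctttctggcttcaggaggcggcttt
Atp5l, chr9:44920950-44920992, strand minus: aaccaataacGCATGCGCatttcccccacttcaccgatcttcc
A match is a run of letters and not a measured binding site.

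The authors' deposited tables of comparisons were read beside these fits. Their table named for the E545K tumours and 3-month controls followed the differences from 6-month controls found here (correlation 0.9998 over detected probes, median gap 0.0044) rather than those from 3-month controls (0.8921 and 0.2126), so which controls it used is not settled, and its values are likely those against 6-month controls. The authors' deposited table called 40 member probes at its adjusted p under 0.05, 39 lower and 1 higher. The share it called over all probes was not counted here, and it rests on the same arrays. In the authors' deposited table Uqcr11 was at -0.61 (adjusted p = 3.71e-06), Ndufs7 at -0.68 (adjusted p = 5.34e-05), Cox4i1 at -0.60 (adjusted p = 0.000795), Ndufb2 at -0.92 (adjusted p = 0.00464) and Atp5s at 0.61 (adjusted p = 0.0083). The authors' deposited tables for E545K and H1047R livers of 3 months and for the 6-month controls called 0 members.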

How the data were processed

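Illumina bead arrays measured RNA of 25 samples of mouse liver and liver tumour, on an array type not given in the sources used here. RNA was extracted with Trizol, cleaned on columns with DNase and copied into biotinylated cRNA, per the labels' protocols. The deposited non-normalized values are intensities on a linear scale, each with a detection p-value, per the file headers. A second deposited table holds the authors' processed intensities, with array medians of 104.783 to 104.847, which served as an alternative. In the authors' deposited comparisons the values are log2 differences and p-values, and their sheet paired probes with symbols, chromosomes and Entrez identifiers, through which all 85 members matched RefSeq.

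Signals of all arrays were background-corrected and quantile-normalized by neqc (limma 3.58.1, R 4.3.3; offset 16, background from the detection p-values), and read with version 1.17.8 of the R package data.table. Figures were drawn with matplotlib 3.10.9. Each comparison was fitted with lmFit and eBayes on its own samples over 20349 detected probes, with Benjamini-Hochberg adjustment. The script was tested on simulated data. Precision is limited by the number of arrays. The highest correlation between any 2 arrays was 0.9878, and none was counted as a copy.

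Members and lists were chosen with earlier results of these data known. Genes were named by rule: the 4 of smallest p of each complex, the 5 highest and 5 lowest called genes without overlap, tissue forms, genes with opposite probes, and 3 of smallest p per other list. The dimmer probes of Ndufb10, Ndufa3 and Atp5k, and the within-group pattern, were chosen after their values were seen. For 1 member no values of its own are given here, while its probes stay in the fits and counts. Replicate numbers were shared between groups, but did not pair the samples: of 30 pairs 10 correlated above 0.1 (range -0.324 to 0.539). Alternatives were other background, scaling, filter, probe choice and fit, the replicate block, and arrays left out.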

Additional observations from a re-analysis of the deposited data

Results flagged for a closer look

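Among the named genes, 13 of 210 groups of 4 or 5 arrays (6.19%) held an array far from the others by Dixon's test, where chance flags about 1 in 20. In the E545K tumours these were Uqcr11 in replicate 5, at 12.97 against 12.73 to 12.79 in the others, and Ndufa3 in replicate 1, at 11.92 against 11.48 to 11.57. At 3 months, E545K replicate 4 had Ndufb2 at 8.05 against 8.44 to 8.55, and H1047R replicate 1 had Cox7a2l at 11.16 against 10.55 to 10.65.

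Among 6-month controls, replicate 5 was low for Ndufb9 (7.65 against 9.26 to 9.50), Ndufaf2 (7.15 against 8.60 to 8.92) and Cox6c (11.74 against 12.55 to 12.77). It had the fewest detected probes of all arrays, 14536. Replicate 1, with 14772, was low for Sdhb (8.94 against 10.32 to 10.85) and Atp5d (10.91 against 11.36 to 11.52) and high for Uqcr11 (13.62 against 13.31 to 13.40). Replicate 3 was low for Ndufs6 (13.41 against 13.73 to 13.84). Among 3-month controls, replicate 1 was low for Uqcr10 (13.53 against 13.62 to 13.63) and replicate 4 for Ndufaf4 (8.58 against 8.86 to 8.91). The part of the number of detected probes was not tested.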

How the results depend on the processing

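Under the alternatives run, 0 results of named genes reversed, but some lost their call. These were 12 of 192 with the replicate block, 6 of 109 without 3-month control replicates 1 and 2, 76 of 1946 when single arrays were left out, and 0 to 5 under each other setting. The totals include comparisons with 0 calls, where no call could be lost, so these shares understate the loss. Without the arrays high in muscle markers, which leaves 1 control of 3 months, most calls of named genes against 3-month controls were lost. In that setting Cox5b, Atp5b and Atp5g3 lost their calls against 6-month controls. Lost calls included Sdhb and Sdhd against 3-month controls without a filter (adjusted p = 0.0632 and 0.0761), in a single fit of all arrays (0.112 and 0.0853) and with the block (0.122 and 0.0574). With the block Sdhc was lost there too (0.114). Against 6-month controls Cox6b1, Atp5b and Atp5g3 were lost when detection on 20 arrays was required (0.057, 0.0582 and 0.0561), and Cox5b, Atp5b and Atp5g3 with the block (0.056, 0.0506 and 0.0553). Scaling to a common median instead of quantile normalization moved the median of all detected probes to -0.32 (tumours against 3-month controls), -0.30 (against 6-month controls), -0.28 (against E545K livers) and -0.19 (late H1047R livers against 6-month controls). Member medians became -0.50, -0.56, -0.47 and -0.54, and the calls against 6-month controls 51 (1 higher, 50 lower), against 31. Calls over all detected probes are not given for any alternative in this section. The counts of calls therefore do not show whether the members' share changed against the background. Without a filter the member median against 3-month controls was -0.19. Without the arrays high in muscle markers, left out after seeing the data, the calls were 4 against 3-month and 17 against 6-month controls. Without 3-month control replicates 1 and 2, also chosen after seeing the data, they were 42. With all 25 arrays in a single fit, 1 member was called in late H1047R livers, against 0.

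Leaving out each array in turn gave 49 to 70 calls and medians of -0.37 to -0.29 against 3-month controls, 13 to 34 and -0.44 to -0.28 against 6-month controls, and 39 to 59 and -0.32 to -0.21 against E545K livers. It gave 0 calls in the other comparisons, with medians of -0.12 to -0.03 (E545K livers), -0.01 to 0.08 (H1047R livers), -0.12 to -0.01 (E545K against H1047R), -0.01 to 0.10 (6-month against 3-month controls) and -0.49 to -0.15 (late H1047R). With the replicate number as a block, which did not pair the samples, the tumours had 46, 34 and 43 calls (medians -0.33, -0.35 and -0.26) and the livers and controls 0. Depth here is signal over background: the lowest detected log2 signals were 4.59 to 4.93, so losses of dim members can be understated.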
